A study of Mus musculus with 10 samples.

Results

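The SLC7 family holds the transporters that carry cationic and large neutral amino acids across the plasma membrane, and Slc3a2 encodes the heavy chain that several of them need to reach it. The 7 genes described here were Slc7a1, Slc7a2, Slc7a3, Slc7a5, Slc7a6, Slc7a8 and Slc3a2, taken from a mouse microarray series by the RefSeq accession of their probes. They were 7 of 19752 named genes and had 8 of the 55681 gene probes on the array. Slc7a1, Slc7a2 and Slc7a3 encode cationic amino acid transporters that work alone and take up arginine, lysine and ornithine. Slc7a5 and Slc7a8 encode light chains that pair with the Slc3a2 protein and exchange large neutral amino acids such as leucine. Slc7a6 encodes another such light chain, which exchanges cationic for neutral amino acids. The kinase PERK phosphorylates the translation factor eIF2α under endoplasmic reticulum stress, after which the transcription factor ATF4 is made and switches on genes of amino acid uptake and synthesis. Slc7a1, Slc7a5, Slc7a11 and Slc3a2 are known targets of that pathway, and in skeletal muscle these transporters supply the amino acids used for protein synthesis.

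RNA was hybridised to 10 Agilent mouse arrays of 1 colour each, in 5 groups of 2. Muscle came from male C57BL/6J mice. The 3 muscle groups were hSA::Fv2E-PERK transgenic mice injected with AP20187 at 1 ng/g, the same transgenic mice injected with vehicle, and untreated wild type mice. Fv2E-PERK is a PERK kinase domain fused to a drug-binding module, and AP20187 is the cell-permeable compound that brings the modules together. The hSA part of the transgene's name refers to a skeletal actin promoter, so that the muscle fibre is the cell type meant to carry it, while the wild type mice carried no transgene and received no injection. The 2 culture groups were C2C12 cells with Fv2E-PERK given AP20187 at 100 nM or vehicle. C2C12 is a mouse myoblast line, here grown in 10% fetal bovine serum and kept for 3 days in 2% horse serum to differentiate. Injected mice and treated cells were collected 12 h after AP20187 or vehicle. The labels do not say whether the 2 arrays of a group came from separate animals or cultures, so that p-values here measure the spread between arrays, which may be technical. The age of the mice and the muscle taken were not given in the sources used here.

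A level below is the log2 intensity of a gene's probe minus the 75th percentile of its array, so that 0 is a probe at that percentile and 1 unit is a doubling. Between 41.0% and 53.1% of gene spots per array were well above background, no spot was saturated, and replicate arrays correlated at 0.985 to 0.992 over 13799 genes. All 8 skeletal muscle markers were well above background in the 3 muscle groups and in C2C12 vehicle, and Tnnt3 was below that mark in C2C12 AP20187. The arrays were scanned in 3 sessions, 1 for wild type muscle, 1 for both transgenic groups and 1 for C2C12. Transgene, injection and scan session therefore cannot be told apart in a comparison with wild type, and tissue and session cannot be told apart between muscle and C2C12. On the C2C12 AP20187 arrays 2.37% and 2.00% of gene spots were flagged as outliers, against 0.376% and 0.278% on the C2C12 vehicle arrays, and flagged spots were left out. The flags removed Slc7a1 from 1 of the C2C12 AP20187 arrays and Slc3a2 from the other. Levels from tissue are per array, and fewer cells of a type cannot be told apart from less RNA per cell.

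In muscle, Slc7a1, Slc7a5 and Slc3a2 were higher in AP20187-treated than in vehicle-treated transgenic muscle by factors between 1.67 and 2.22. The same genes and Slc7a3 were already far higher in vehicle-treated transgenic than in wild type muscle, between 3.80-fold and at least 74.6-fold. For Slc7a5 both statements hold on its brighter probe only. Its other probe did not pass with AP20187 and was lower in transgenic than in wild type muscle. Slc7a8, the second neutral light chain, was 3.18-fold lower in transgenic vehicle than in wild type muscle. Slc7a2 and Slc7a6 passed the test in none of the 3 muscle comparisons. These 3 comparisons share arrays, so that they are given side by side and none stands as support for another.

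**Figure D1:**
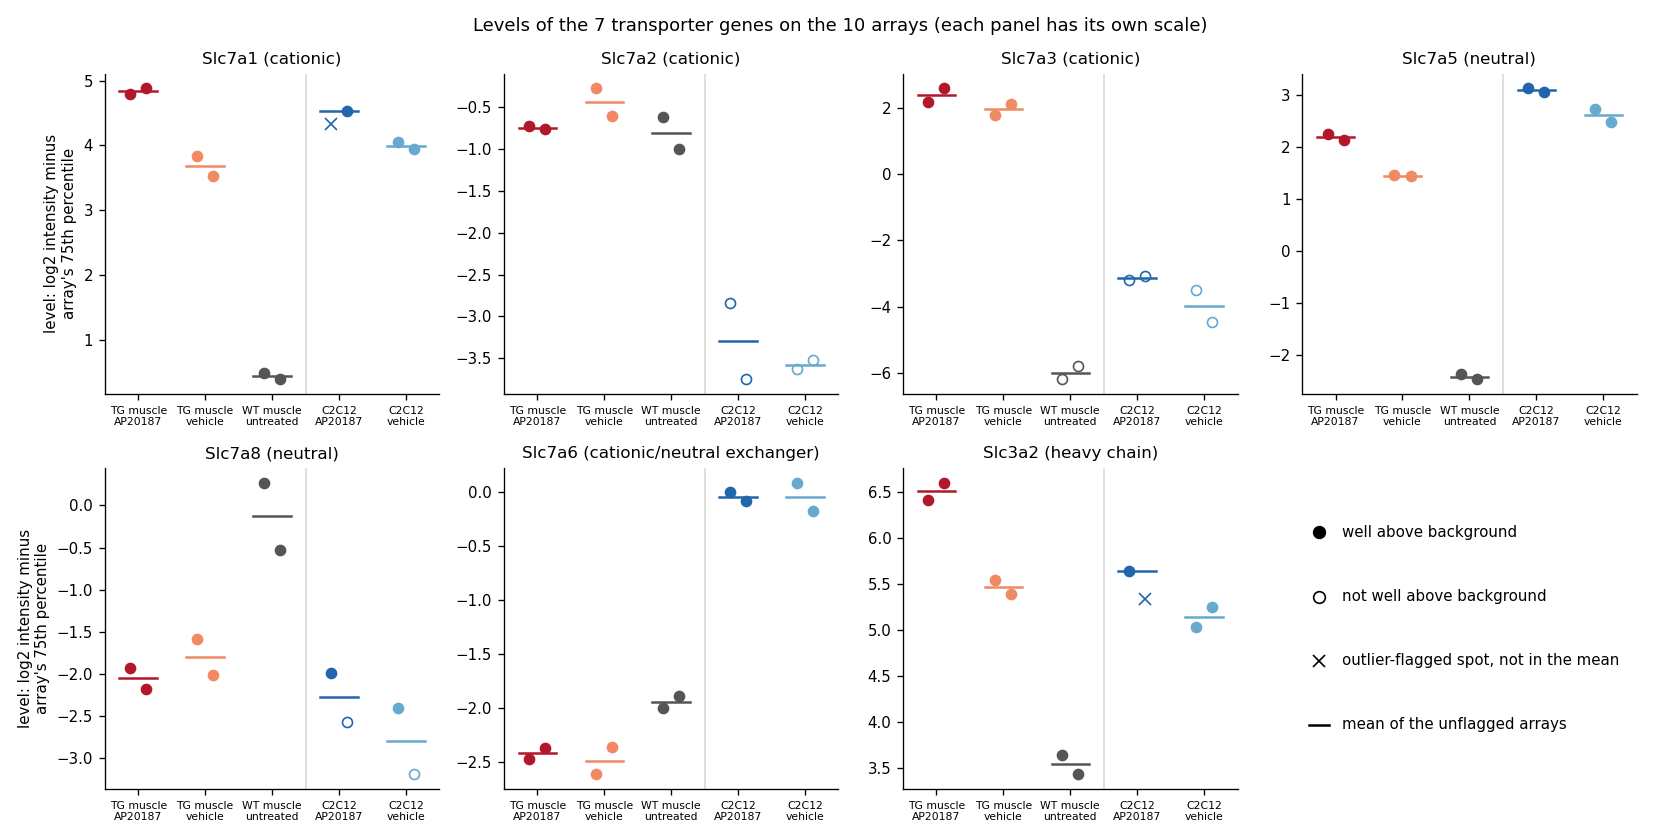
Level of each of the 7 genes on each of the 10 arrays (y axis, log2 intensity minus the array's 75th percentile) by group (x axis), with lines at the means of unflagged arrays. The transgenic muscle points of Slc7a1, Slc7a3, Slc7a5 and Slc3a2 lie above the wild type points, those of Slc7a8 lie below them, and the wild type points of Slc7a3 are open because they were not well above background. Slc7a5 is shown on its brighter probe.

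Among the cationic transporters, Slc7a1 encodes the widely expressed carrier of the system. Its level was 4.79 and 4.88 in AP20187-treated transgenic muscle, 3.83 and 3.53 in vehicle-treated transgenic muscle, and 0.50 and 0.39 in wild type muscle. In C2C12 the unflagged AP20187 array had 4.54, against 4.05 and 3.94 on the vehicle arrays. The 3 muscle groups did not overlap, with wild type far below both transgenic groups. AP20187-treated over vehicle-treated transgenic muscle gave a log2 difference of 1.15 (SE 0.12), or 2.22-fold, with an adjusted p of 0.00106 by limma. The log2 difference from wild type was 3.24 (SE 0.12, 9.42-fold, adjusted p = 4.40e-06) for vehicle-treated and 4.39 (SE 0.12, 20.9-fold, adjusted p = 4.94e-07) for AP20187-treated transgenic muscle.

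Slc7a3 encodes a cationic transporter best known from brain. Its level was 2.17 and 2.58 in AP20187-treated transgenic muscle and 1.78 and 2.10 in vehicle-treated transgenic muscle. In wild type muscle the probe read -6.19 and -5.79 and was not well above background on either array. In C2C12 it read -3.20 and -3.07 with AP20187, against -3.48 and -4.46 with vehicle, and it was not well above background on any of those 4 arrays. Slc7a3 was thus measured in transgenic muscle alone among the 5 groups, and the transgenic points stood clear of all others. Vehicle-treated transgenic muscle was at least 74.6-fold above wild type muscle (adjusted p = 6.96e-07 by limma), and AP20187-treated transgenic muscle at least 101-fold above it (adjusted p = 3.25e-07). The gene entered these tests through the transgenic arrays alone, and the p-values come from a fit that took the wild type readings as they stood. Here a bound sets the bright group's mean against the lowest signal that was well above background on each dim array, or the dim probe's own where that was higher. Between AP20187 and vehicle the transgenic arrays did not overlap, but the log2 difference of 0.44 (95% confidence interval -0.047 to 0.92) did not pass, with an adjusted p of 0.148. With normexp background correction it did pass, at 0.47 (adjusted p = 0.0427 by limma).

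Slc7a2 encodes the cationic transporter known in muscle, liver and activated macrophages. It read -0.73 and -0.76 in AP20187-treated transgenic, -0.27 and -0.61 in vehicle-treated transgenic and -0.62 and -1.0 in wild type muscle. In C2C12 it read -2.84 and -3.75 with AP20187 and -3.63 and -3.52 with vehicle, below the background mark on all 4 arrays. The 3 muscle groups lay close together and the culture groups far below them. The log2 difference between AP20187 and vehicle in transgenic muscle was -0.31 (95% confidence interval -0.72 to 0.11, adjusted p = 0.230 by limma). Vehicle-treated transgenic minus wild type muscle gave 0.37 (-0.050 to 0.79, adjusted p = 0.144), and AP20187-treated transgenic minus wild type gave 0.064 (-0.36 to 0.48, adjusted p = 0.785).

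Of the neutral light chains, Slc7a5 is the leucine exchanger found in growing cells. On the brighter of its 2 probes, which stands for the gene here, the level was 2.24 and 2.14 in AP20187-treated transgenic, 1.46 and 1.44 in vehicle-treated transgenic and -2.36 and -2.48 in wild type muscle. The C2C12 levels were 3.13 and 3.06 with AP20187 and 2.74 and 2.48 with vehicle. No groups overlapped, and wild type muscle was lowest and the C2C12 AP20187 arrays highest. AP20187 minus vehicle in transgenic muscle was 0.74 on the log2 scale (SE 0.11, 1.67-fold, adjusted p = 0.00378 by limma). Against wild type the difference was 3.87 (SE 0.11, 14.6-fold, adjusted p = 1.14e-06) for vehicle-treated and 4.61 (SE 0.11, 24.5-fold, adjusted p = 3.22e-07) for AP20187-treated transgenic muscle.

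The second Slc7a5 probe, assigned to the same RefSeq accession, did not follow this pattern. It read -1.37 and -1.35 in AP20187-treated transgenic, -1.52 and -1.16 in vehicle-treated transgenic and -0.64 and -0.57 in wild type muscle, well above background throughout. With this probe wild type muscle was the highest group, where it was the lowest with the brighter probe. Fitted in place of the first, the second probe gave -0.023 (SE 0.17, adjusted p = 0.927) for AP20187 minus vehicle in transgenic muscle. It gave -0.73 (SE 0.17, adjusted p = 0.0116) for vehicle-treated transgenic minus wild type and -0.75 (SE 0.17, adjusted p = 0.00682) for AP20187-treated transgenic minus wild type. The mean over both probes gave 0.36 for AP20187 against vehicle, which did not pass (adjusted p = 0.0709). Each statement on Slc7a5 here therefore holds for 1 of 2 probes, and which transcripts each probe reads was not tested.

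**Figure D2:**
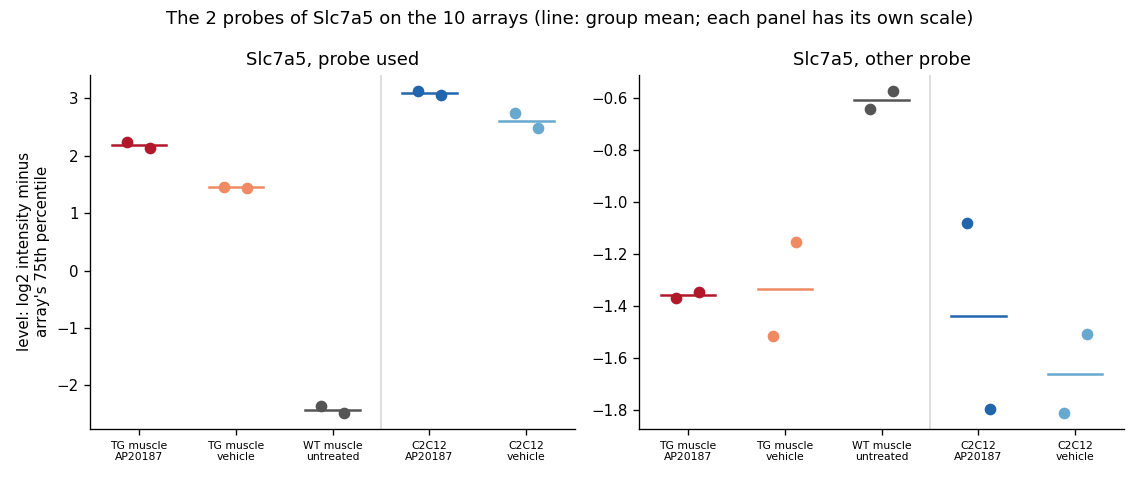
Levels on the 2 probes of Slc7a5 (y axis, log2 intensity minus the array's 75th percentile, each panel with its own scale) by group (x axis), with lines at group means. Wild type muscle is the lowest group on the probe used, at -2.36 and -2.48, and the highest on the other probe, at -0.64 and -0.57.

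Slc7a8 encodes the broader neutral exchanger of differentiated tissues. Its probe has 10 spots on the array, against 1 for the probes of the 6 other genes. It read -1.93 and -2.17 in AP20187-treated transgenic, -1.59 and -2.01 in vehicle-treated transgenic and 0.27 and -0.53 in wild type muscle. In C2C12 it read -1.99 and -2.57 with AP20187 and -2.41 and -3.19 with vehicle, well above background on 1 array of each pair. The transgenic groups overlapped each other and lay wholly below wild type, whose replicates were the most spread of the 3. The log2 difference was -1.67 (SE 0.28, 3.18-fold lower, adjusted p = 0.00302 by limma) for vehicle-treated transgenic against wild type and -1.92 (SE 0.28, 3.79-fold lower, adjusted p = 9.62e-04) for AP20187-treated transgenic against wild type. Between AP20187 and vehicle it was -0.25 (95% confidence interval -0.89 to 0.39, adjusted p = 0.511).

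Slc7a6, the exchanger of cationic for neutral amino acids, read -2.47 and -2.37 in AP20187-treated transgenic, -2.62 and -2.37 in vehicle-treated transgenic and -2.01 and -1.90 in wild type muscle. In C2C12 it read -0.0080 and -0.086 with AP20187 and 0.080 and -0.18 with vehicle. Both transgenic groups overlapped each other and lay below wild type, and the culture groups were the highest. AP20187 minus vehicle in transgenic muscle was 0.070 (95% confidence interval -0.40 to 0.54, adjusted p = 0.815 by limma). The differences from wild type were -0.54 (-1.01 to -0.071, adjusted p = 0.0690) for vehicle-treated and -0.47 (-0.94 to -7.69e-04, adjusted p = 0.0853) for AP20187-treated transgenic muscle. Neither passed, although both passed with the authors' deposited values, without a variance trend and with the percentile taken over detected probes.

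Slc3a2, the heavy chain that carries Slc7a5, Slc7a6 and Slc7a8 to the membrane, read 6.41 and 6.59 in AP20187-treated transgenic, 5.54 and 5.39 in vehicle-treated transgenic and 3.64 and 3.43 in wild type muscle. Its unflagged C2C12 AP20187 array read 5.63, against 5.03 and 5.25 with vehicle. As for Slc7a1, the muscle groups stood in 3 separate steps. AP20187 minus vehicle in transgenic muscle was 1.04 on the log2 scale (SE 0.12, 2.06-fold, adjusted p = 0.00122 by limma). The difference from wild type was 1.93 (SE 0.12, 3.80-fold, adjusted p = 4.95e-05) for vehicle-treated and 2.96 (SE 0.12, 7.80-fold, adjusted p = 2.41e-06) for AP20187-treated transgenic muscle.

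Counted over all 7 genes, AP20187 against vehicle in transgenic muscle gave 3 higher and 0 lower, beside 29.3% of 13543 genes called in either direction and 14.3% called higher. The median log2 difference of the 7 was 0.44, against -0.11 for all genes tested. Vehicle-treated transgenic against wild type muscle gave 4 higher and 1 lower, beside 38.3% of genes called, 25.7% higher and 12.6% lower, with a median of 1.93 against 0.086. Slc7a3 is among the higher genes in both comparisons with wild type, having entered them through the transgenic arrays alone. AP20187-treated transgenic against wild type muscle gave the same counts, 4 higher and 1 lower, beside 52.2% of genes called, 29.6% higher and 22.6% lower, with a median of 2.96 against 0.043. The share of called genes that were higher moved with the scaling, at 48.9% with AP20187 in transgenic muscle and 63.2% under quantile normalization, and at 67.1% for transgenic vehicle against wild type and 47.0% with the percentile over detected probes. Under both of those settings the members' counts in these 3 comparisons were as large or larger by 1. By kind, 1 of the 3 cationic transporters rose with AP20187 in transgenic muscle and 2 were higher in vehicle-treated transgenic than in wild type muscle. Of the 2 neutral light chains, Slc7a5 on its brighter probe was higher and Slc7a8 lower than wild type. On the other Slc7a5 probe both light chains were lower. The cationic kind thus did not move as a block, and for the neutral kind this depended on the Slc7a5 probe. All counts and medians here take Slc7a5 from its brighter probe.

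**Figure D3:**
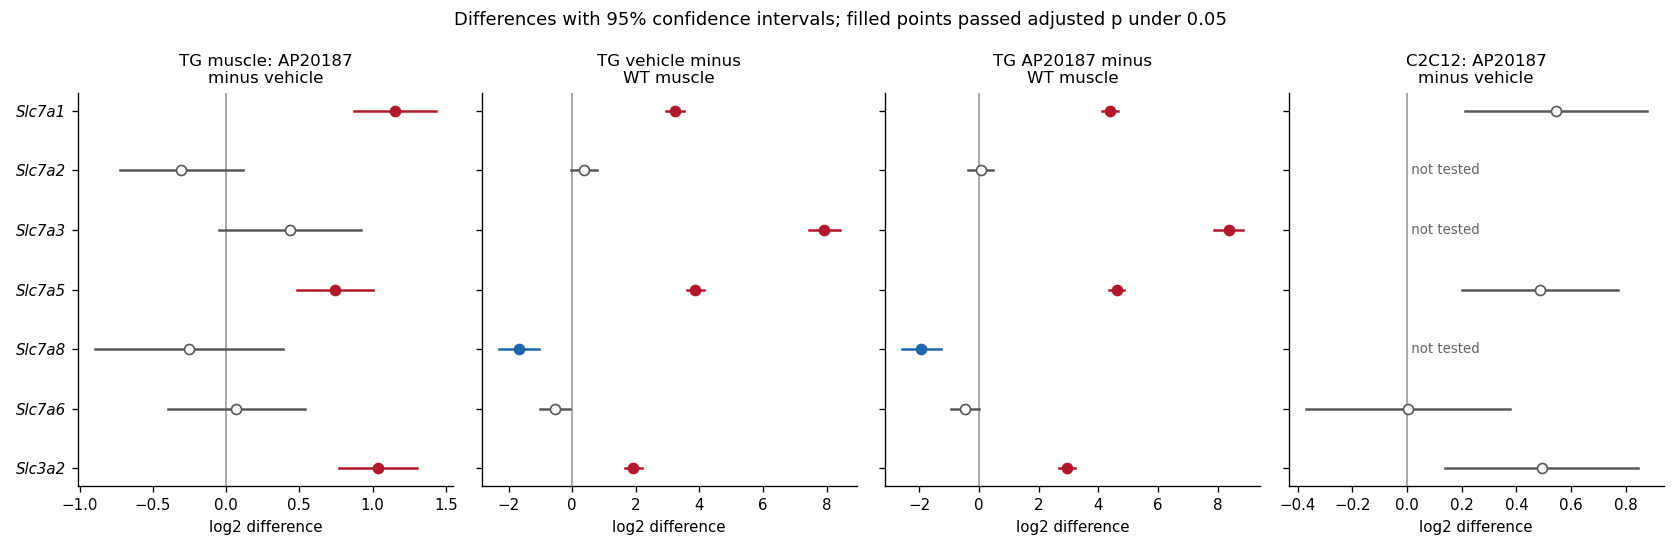
Log2 difference of each gene (x axis, with 95% confidence intervals) in the 3 muscle comparisons and in C2C12, filled where the adjusted p was under 0.05. Slc7a1, Slc7a5 and Slc3a2 are filled to the right of 0 in all 3 muscle panels, Slc7a3 in both comparisons with wild type, and no gene is filled in C2C12. Slc7a5 is shown on its brighter probe.

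The 2 groups of transgenic muscle lay in 1 scan session, and with those 4 arrays alone the same number of genes, 3 higher and 0 lower, passed. The vehicle arrays lay in slide column 1 and the AP20187 arrays in columns 3 and 4, so that slide column cannot be told apart from treatment. Markers of other cells also differed between these groups. Of the 9 macrophage and leucocyte markers measured, 8 were lower and 0 higher in AP20187-treated than in vehicle-treated transgenic muscle, beside 15.0% of all genes lower. Against wild type 9 of the 9 were lower in AP20187-treated transgenic muscle, beside 22.6% of all genes, and 1 of the 9 in vehicle-treated transgenic muscle, beside 12.6%. Their summed intensity, in multiples of the 75th percentile, was 20.1 to 20.5 in AP20187-treated transgenic, 34.4 to 38.3 in vehicle-treated transgenic and 40.5 to 43.6 in wild type muscle. Of that list only Ptprc was not well above background in a muscle group, and that in AP20187-treated muscle. The summed intensity of 6 endothelial markers was 18.2 and 42.8 on the 2 AP20187 arrays, against 47.3 to 48.4 with vehicle, and none of the 6 passed. Of 6 fibroblast markers 2 were lower with AP20187, beside 15.0% of all genes. Of the same markers 4 were lower in AP20187-treated transgenic than in wild type muscle, beside 22.6%. Of 5 myogenic markers tested, Myog and Myod1 were higher with AP20187 and 0 lower, beside 14.3% and 15.0% of all genes. Log2 differences over that list ran from -0.50 up to 3.44. Against wild type 1 was higher and 2 lower in vehicle-treated transgenic muscle, beside 25.7% and 12.6% of all genes. The counts were the same in AP20187-treated transgenic muscle, beside 29.6% and 22.6%. In vehicle-treated transgenic against wild type muscle 2 of 6 adipocyte markers, Fabp4 and Cidec, and 2 of 3 smooth muscle markers, Tagln and Acta2, were higher. Over all genes 25.7% were higher there. Of 8 skeletal muscle markers 0 were higher and 1 lower with AP20187, beside 14.3% and 15.0% of all genes. Against wild type 1 was higher and 1 lower in vehicle-treated transgenic muscle, beside 25.7% and 12.6%. In AP20187-treated transgenic muscle 0 were higher and 3 lower than in wild type, beside 29.6% and 22.6%. The part of all these cells in the transporter differences was not tested.

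In C2C12 no member passed. Of the 7 genes 4 were tested, since Slc7a2 and Slc7a3 were not well above background on any C2C12 array and Slc7a8 was so on only 1 array of each group. Over all genes 0.482% of 11409 were called, and 0 of the 4 transporters, by limma with adjustment over all genes. At an unadjusted p under 0.05, 3 of the 4 were higher and 0 lower. Slc7a1 gave a log2 difference of 0.54 (95% confidence interval 0.21 to 0.88, adjusted p = 0.162), Slc7a5 0.49 (0.20 to 0.77, adjusted p = 0.136) and Slc3a2 0.49 (0.14 to 0.84, adjusted p = 0.221), while Slc7a6 gave 0.0028 (-0.37 to 0.38, adjusted p = 0.994). The median of the 4 was 0.49, against -0.057 for all genes tested.

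For Slc7a1 and Slc3a2 the AP20187 group rested on 1 unflagged array each. The flagged spots read 4.33 for Slc7a1 and 5.33 for Slc3a2, and with them the C2C12 groups of each gene still did not overlap. Of all alternatives run in C2C12, calls came only with the percentile taken without flagged spots, which gave 3 higher and 0 lower. That setting moved the median log2 difference of all genes to 0.15, since 93.3% and 91.5% of the flagged spots on the AP20187 arrays were brighter than the 75th percentile. The 2 C2C12 groups also lay in different rows of their slides, and slide row cannot be told apart from treatment. The 6 adipocyte markers were summed to 7.91 to 11.3 times the percentile with AP20187, against 0.766 to 1.04 with vehicle, where Adipoq and Cidec were not well above background. In that list 4 were higher and 0 lower with AP20187, beside 0.316% and 0.167% of all genes. Of 7 skeletal muscle markers tested 0 were higher and 1, Myh4, was lower. That list summed to 373 to 414 with AP20187, against 451 to 633 with vehicle. Fibroblast markers summed to 163 to 204 with AP20187, against 413 to 472 with vehicle, and 0 of the 4 tested passed. No marker of the remaining lists passed. The part of these markers in the transporter values was not tested.

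The difference between the AP20187 responses was tested directly in a fit of all 10 arrays, although the doses of mice and cells are not comparable. Across all genes 12.0% of 14094 were called, 7.98% higher and 4.02% lower, and 0 of the 7 transporters by limma, with 2 at an unadjusted p under 0.05, both larger in muscle. Of the 7, 4 were measured in both settings, and Slc7a2, Slc7a3 and Slc7a8 lacked a C2C12 response that could be tested. Slc7a1 changed by 0.61 more in muscle than in C2C12 on the log2 scale (95% confidence interval 0.19 to 1.03, adjusted p = 0.0643) and Slc3a2 by 0.55 more (0.11 to 0.98, adjusted p = 0.0969). Slc7a5 gave 0.26 (-0.12 to 0.64, adjusted p = 0.346). Slc7a6 gave 0.067 (-0.55 to 0.69), Slc7a8 -0.77 (-1.88 to 0.33), Slc7a2 -0.59 (-1.53 to 0.36) and Slc7a3 -0.40 (-1.42 to 0.61), and the last 3 of these rest on C2C12 readings that were wholly or partly under the background mark. With flagged spots kept, 2 of the 7 passed, Slc7a1 at 0.72 (adjusted p = 0.0237) and Slc3a2 at 0.70 (adjusted p = 0.0377). Without the first vehicle-treated transgenic array Slc7a1 alone passed, at 0.76 (adjusted p = 0.0331).

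The 2 settings also differed in which transporters were present. Between vehicle-treated transgenic muscle and vehicle-treated C2C12, both carrying Fv2E-PERK, 78.7% of 14292 genes were called, 40.2% higher and 38.5% lower, and all 7 transporters, 4 higher and 3 lower in muscle. Slc7a3 was at least 26.3-fold and Slc7a2 at least 5.05-fold higher in muscle, where C2C12 was below the background mark, and Slc7a8 was 2.00-fold (adjusted p = 0.0223) and Slc3a2 1.25-fold (adjusted p = 0.0336) higher by limma. For Slc7a8 only 1 of the 2 C2C12 vehicle arrays was well above background, so its fold rests in part on a reading under that mark. Slc7a2, Slc7a3 and Slc7a8, all counted among the higher genes, entered this comparison through muscle arrays alone. Slc7a6 was 5.43-fold lower in muscle (adjusted p = 5.75e-07), Slc7a5 2.24-fold lower (adjusted p = 4.77e-06) and Slc7a1 1.24-fold lower (adjusted p = 0.0339). The small differences were the fragile ones. Direction and side of the threshold held in 13 of 20 alternatives for Slc3a2, 15 of 20 for Slc7a1 and 16 of 20 for Slc7a8, and some of the changes follow. Slc3a2 was lower in muscle under quantile normalization, at -0.15, and 3 genes lost their call when 1 vehicle array was left out. Slc7a1 gave -0.26 without the first C2C12 array, -0.37 without the second and -0.16 without the second transgenic array, with adjusted p of 0.146, 0.0511 and 0.268. Slc3a2 gave 0.21 without the first C2C12 array and 0.24 without the first transgenic array (adjusted p = 0.200 and 0.169). Slc7a8 gave 0.61 without the second C2C12 array and 0.79 without the first transgenic array (adjusted p = 0.179 and 0.131). The second Slc7a5 probe gave 0.32 in place of a decrease, with an adjusted p of 0.262.

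Ordered by level, Slc7a1 and Slc3a2 were highest in AP20187-treated transgenic muscle and lowest in wild type muscle, and the neighbours in their orders did not overlap. With its flagged spot Slc3a2 in C2C12 AP20187 overlapped vehicle-treated transgenic muscle, and under quantile normalization Slc7a1 was highest in C2C12 with AP20187. Slc7a3 was likewise highest in AP20187-treated and next in vehicle-treated transgenic muscle, with the order below those groups set by readings under the background mark. Slc7a5 on its brighter probe was highest in C2C12 with AP20187, then in C2C12 with vehicle, then in the 2 transgenic groups. Slc7a8 was highest in wild type muscle, and its 4 other groups overlapped from one to the next. Slc7a6 was highest in the 2 culture groups, which overlapped, as did the 2 transgenic groups at the bottom. Slc7a2 was highest in vehicle-treated transgenic muscle, while AP20187-treated transgenic and wild type muscle overlapped.

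The array also held 10 other SLC7 and SLC3 genes, of which 4 were tested in muscle and 1, Slc7a11, was called higher in each muscle comparison. Over all genes 14.3% were higher with AP20187 in transgenic muscle. Against wild type 25.7% were higher in vehicle-treated and 29.6% in AP20187-treated transgenic muscle. Slc7a11 encodes the light chain of the cystine and glutamate exchanger and also pairs with Slc3a2. It entered the comparisons with wild type through the transgenic arrays alone. It read -0.052 and 0.31 in AP20187-treated transgenic and -0.62 and -0.65 in vehicle-treated transgenic muscle. In wild type muscle it read -6.21 and -6.30 and was not well above background, nor was it on any C2C12 array. The transgenic groups did not overlap and stood far above wild type. AP20187 minus vehicle was 0.77 (SE 0.21, 1.70-fold, adjusted p = 0.0304 by limma), and the level was at least 12.5-fold above wild type in vehicle-treated and at least 21.3-fold in AP20187-treated transgenic muscle. Slc7a4, Slc7a7 and Slc7a10 passed in none of the 3 muscle comparisons. In C2C12 only Slc7a7 was tested, at 0.34 (adjusted p = 0.560). Between vehicle-treated transgenic muscle and C2C12 vehicle, Slc7a11 was at least 4.41-fold, Slc7a10 at least 3.41-fold and Slc7a7 1.79-fold higher. Slc7a4 was called lower in muscle, with 1 of 2 arrays well above background in each of these groups, and no fold is given for it. Over all genes 40.2% were higher and 38.5% lower in that comparison. Slc7a4, Slc7a10 and Slc7a11 entered it through muscle arrays alone, and Slc7a10 and Slc7a11 were under the background mark on every C2C12 array.

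For promoter sequence, RefSeq (GRCm38.p6) gave a start for 4 of the 7 genes, which were Slc7a1, Slc7a6, Slc7a8 and Slc3a2. The 250 bases before the start are printed 5′ to 3′ on the gene's strand for Slc7a1 and Slc3a2, which rose with AP20187, for Slc7a8, which was lower in transgenic than in wild type muscle, and for Slc7a11. They lie at chr5:148399905-148400154 for the farther upstream of the 2 Slc7a1 starts, chr19:8713898-8714147 for Slc3a2, chr14:54781887-54782136 for Slc7a8 and chr3:50443614-50443863 for Slc7a11, all on the minus strand. Capitals mark matches on either strand to TGATGNAA, the core of the composite site bound by ATF4 with C/EBP proteins, to CCAAT or to GGGCGG, the GC box.
Slc7a1: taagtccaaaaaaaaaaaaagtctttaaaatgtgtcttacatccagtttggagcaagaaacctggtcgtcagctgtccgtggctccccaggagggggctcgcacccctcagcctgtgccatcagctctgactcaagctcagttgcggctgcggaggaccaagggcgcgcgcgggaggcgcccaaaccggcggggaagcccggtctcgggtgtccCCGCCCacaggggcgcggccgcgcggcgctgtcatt
Slc3a2: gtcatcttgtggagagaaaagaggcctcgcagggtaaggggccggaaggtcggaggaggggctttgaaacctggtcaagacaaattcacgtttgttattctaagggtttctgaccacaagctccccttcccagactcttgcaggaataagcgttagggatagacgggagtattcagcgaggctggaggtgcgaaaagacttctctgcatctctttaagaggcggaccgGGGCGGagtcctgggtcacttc
Slc7a8: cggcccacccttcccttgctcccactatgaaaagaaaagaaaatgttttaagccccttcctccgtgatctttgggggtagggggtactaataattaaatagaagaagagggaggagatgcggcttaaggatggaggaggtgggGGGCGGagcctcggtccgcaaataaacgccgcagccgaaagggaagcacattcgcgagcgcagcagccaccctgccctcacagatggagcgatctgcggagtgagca
Slc7a11: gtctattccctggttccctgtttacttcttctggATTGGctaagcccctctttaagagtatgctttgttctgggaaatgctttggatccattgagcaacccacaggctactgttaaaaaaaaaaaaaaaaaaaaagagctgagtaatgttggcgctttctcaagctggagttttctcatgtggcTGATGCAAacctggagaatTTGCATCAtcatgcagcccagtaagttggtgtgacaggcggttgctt
TGATGNAA was found in the Slc7a11 window, on the plus strand 66 to 59 bases before the start and on the minus strand 47 to 40 bases before it. It was in 3.45% of 32817 RefSeq windows of 250 bases, and on both strands in 0.0183% of them. None of the 6 windows of the 4 matched transporters held these letters, which says nothing of sites elsewhere in the genes. GGGCGG was found 36 to 31 bases before the Slc7a1 start, 22 to 17 bases before the Slc3a2 start and ending 102 bases before the Slc7a8 start, and in 32.7% of all windows. It was also found 57 to 52 bases before a start of Slc7a6, which passed in no muscle comparison and is not printed. The other windows of Slc7a6 and Slc7a1 held none. CCAAT was found in the Slc7a11 window alone, 216 to 212 bases before the start, and in 33.8% of all windows. The GC content of the 4 printed windows was 62.4% for Slc7a1, 53.6% for Slc3a2, 55.6% for Slc7a8 and 43.2% for Slc7a11.

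Other amino acid transporters gave a mixed picture in muscle. Of 23 transporters of the SLC1, SLC6, SLC16, SLC25, SLC36, SLC38 and SLC43 families, 5 were higher and 3 lower with AP20187 in transgenic muscle, with a median log2 difference of 0.25 against -0.11 for all genes. Over all genes 14.3% were higher and 15.0% lower there. The smallest p-values were those of the glycine transporter Slc6a9, at 1.39 (SE 0.13, adjusted p = 7.04e-04 by limma), and the glutamine transporter Slc38a3, at 1.05 (SE 0.11, adjusted p = 9.15e-04). Slc38a3 was lower in vehicle-treated transgenic than in wild type muscle, at -0.87 (adjusted p = 8.71e-04 by limma). AP20187-treated transgenic minus wild type muscle gave 0.18 for it, which did not pass (adjusted p = 0.191). Against wild type, vehicle-treated transgenic muscle had 4 of the 23 higher and 3 lower, beside 25.7% and 12.6% of all genes. The smallest p-values among those higher were of Slc6a9 at 2.39 (adjusted p = 2.99e-05) and Slc1a4, a carrier of alanine and serine, at 0.98 (adjusted p = 4.28e-04). Their median there was -0.0016, against 1.93 for the 7 genes described here. The 1.93 takes Slc7a5 from its brighter probe and includes Slc7a3, which entered through the transgenic arrays alone. Members and lists were chosen with earlier results of these data known, so these medians are given as a description. In C2C12 0 of 17 were higher and 1 was lower, beside 0.316% and 0.167% of all genes, the taurine transporter Slc6a6 at -0.64 (adjusted p = 0.0404).

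Of 20 ATF4 targets and regulators, 14 were higher and 0 lower with AP20187 in transgenic muscle, beside 14.3% and 15.0% of all genes, with a median of 0.77 against -0.11. By p-value, Ppp1r15a, which brings a phosphatase to eIF2α, led at 4.01 (SE 0.12, adjusted p = 1.20e-05 by limma), followed by the stress-induced factor Atf3 at 3.46 (SE 0.14, adjusted p = 4.49e-05). Vehicle-treated transgenic muscle had 15 higher and 2 lower than wild type, beside 25.7% and 12.6% of all genes, with a median of 1.73 against 0.086. The smallest p-values were of Trib3, a pseudokinase, at 7.75 (adjusted p = 3.59e-07) and Asns, asparagine synthetase, at 5.66 (adjusted p = 6.96e-07). In C2C12 2 of 18 were higher and 0 lower, beside 0.316% and 0.167% of all genes, with a median of 0.39 against -0.057. These were Atf3 at 1.44 (adjusted p = 7.99e-04 by limma) and Trib3 at 1.04. The Trib3 value rested on 1 unflagged AP20187 array, and Chac1, with no unflagged AP20187 array, was not tested. The rises of Slc7a1 and Slc3a2 with AP20187 in transgenic muscle, 1.15 and 1.04, lay above the median of that list and below those of Ppp1r15a and Atf3. The Slc7a5 difference lay below that median, at 0.74 on its brighter probe and -0.023 on the other.

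**Figure D4:**
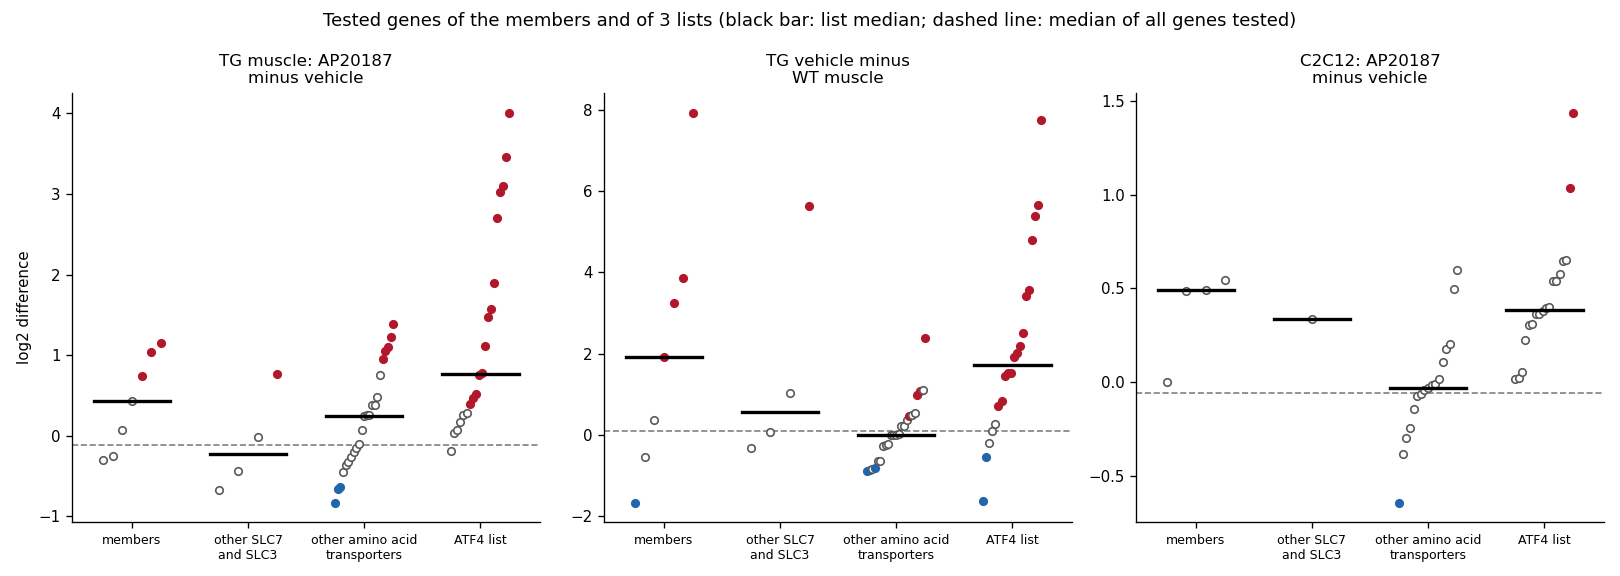
Log2 differences (y axis) of the tested genes among the 7 members, the other SLC7 and SLC3 genes, 23 other amino acid transporters and 20 ATF4 targets and regulators in 3 comparisons, red where called higher, blue where called lower and open where not called. Black bars are list medians and dashed lines the median of all genes, for the members 0.44 against -0.11 with AP20187 in transgenic muscle, 1.93 against 0.086 for transgenic vehicle against wild type, and 0.49 against -0.057 in C2C12. Slc7a5 is shown on its brighter probe.

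Over the 10 arrays, which share groups and scan sessions, the genes most like each transporter were ranked by Pearson's r among 13383 genes, as a description. Slc7a1 was most like Pck2 (r = 0.996), Brca2 (0.986) and Aldh18a1 (0.985), and Slc7a5 most like Wdr36 (0.989), Phgdh (0.987) and Cdk2ap2 (0.985). Slc3a2 was most like Wdr77 (0.988), Slc35f6 (0.984) and Tbc1d31 (0.982), and Slc7a3 most like Mrps17 (0.996), Soat2 (0.988) and Acox2 (0.987). For Slc7a1 and Slc3a2 the flagged spot was kept here. Slc7a2 was most like Pex10 (0.995), Mrpl35 (0.994) and Bmx (0.993), Slc7a6 most like Gab3 (0.998), Dnm3os (0.997) and Cdc20 (0.997), and Slc7a8 most like Ywhag (0.975), Ttc16 (0.954) and Zkscan2 (0.947). Among the transporters themselves, over the 6 muscle arrays, Slc7a1 correlated at 0.994 with Slc3a2, 0.993 with Slc7a5, 0.974 with Slc7a3 and -0.934 with Slc7a8. Over all 10 arrays the value with Slc3a2 was 0.937, with Slc7a5 0.961, with Slc7a3 0.639 and with Slc7a8 -0.859, the culture arrays being where Slc7a1 was high and Slc7a3 under the background mark.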

How the data were processed

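RNA from 6 muscle and 4 C2C12 samples was labelled (150 ng each) and hybridised to 1-colour Agilent arrays of 62976 spots, of which 3671 were controls. Per the file headers, the authors' spot intensities were background-subtracted and detrended with Agilent Feature Extraction 10.7.1.1, with no scaling between arrays. The authors' deposited table holds log2 values on 55821 lines. Of these 55681 could be tied to gene probes, and differences between its arrays correlated with those from the scanner files at 0.9998 or more. Its scale and direction were thereby settled, while its centring is not stated. Its column medians were -0.369 and -0.575 in AP20187-treated transgenic, -0.424 and -0.353 in vehicle-treated transgenic, -0.458 and -0.45 in wild type muscle, 0.799 and 0.776 in C2C12 AP20187 and 0.34 and 0.70 in C2C12 vehicle.

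Levels were log2 processed intensity minus each array's 75th percentile over all gene spots. Outlier-flagged spots were then left out and the remaining spots of a probe averaged. A first version took the percentile after removing flagged spots. It gave C2C12 calls among the members, and it was replaced after these results were seen, because the flagged spots of the C2C12 AP20187 arrays were mostly bright. It is kept as an alternative. RefSeq accessions were named through a RefSeq table (GRCm38.p6). A gene was read from 1 probe, preferring a value on every array and then the brightest, and tested where some group of the fit had it well above background on each of its arrays. The tests were limma 3.58.1 fits in R 4.3.3 (eBayes with a variance trend) of the 6 muscle arrays, the 4 C2C12 arrays, or all 10 for the difference between responses and for muscle against C2C12, with Benjamini-Hochberg adjustment over all genes tested and a threshold of 0.05. They were tested on simulated data. The number of arrays limits the precision, with 3, 2 and 5 residual degrees of freedom.

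The files of wild type muscle carried 1 slide label and those of both other sets another, with repeated positions, so that slide was not used as a batch. The named genes were the 7 members, the other SLC7 and SLC3 genes that passed, up to 2 genes with the smallest p per list and comparison, and the 3 most alike genes per member. Members and lists were chosen with earlier results of these data known. The alternatives were the authors' values, quantile normalization, normexp on median signals (the files hold no mean signal), the percentile over detected probes or without flagged spots, flagged spots kept, no or a stricter filter on dim probes, no variance trend, the mean over probes, the other Slc7a5 probe, the replicate block and leaving out each array. The percentile without flagged spots and the other Slc7a5 probe were added after seeing the data.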

Additional observations from a re-analysis of the deposited data

How the results depend on the processing

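The calls of Slc7a1 and Slc3a2 in the 3 muscle comparisons and of Slc7a8 against wild type kept their direction and side of the threshold under every alternative that tested them. Leaving out 1 array gave 3 called members for AP20187 in transgenic muscle, 5 for either transgenic group against wild type and 0 in C2C12 throughout, 0 to 1 for the difference between the AP20187 responses and 5 to 7 for muscle against C2C12. In C2C12, 3 members passed with the percentile taken without flagged spots. For the difference between responses 2 passed with flagged spots kept and 3 with normexp, where Slc7a2 was lower, and for muscle against C2C12 2 of 2 tested passed with the stricter filter. The second Slc7a5 probe gave -0.023 with AP20187 in transgenic muscle, -0.73 and -0.75 for vehicle-treated and AP20187-treated transgenic against wild type, -0.24 for the difference between responses and 0.32 for muscle against C2C12. Slc3a2 gave -0.15 for muscle against C2C12 under quantile normalization. Slc7a2 in AP20187-treated transgenic against wild type gave -0.068 with the percentile over detected probes and -0.13 to 0.26 without 1 array. Slc7a3 gave -0.89 to 0.084 for the difference between responses without 1 array. Slc7a6, near 0 in the comparisons of AP20187 with vehicle, gave -0.018 (authors' values), -0.024 (normexp), -0.0021 (quantile) and -0.13 to 0.13 (without 1 array) in C2C12, and -0.061 (normexp) and -0.056 to 0.20 (without 1 array) with AP20187 in transgenic muscle. For the difference between responses it gave -0.037 (normexp), -0.0070 (detected probes), -0.14 (without flagged spots) and -0.062 to 0.20 (without 1 array). The cause of these changes was not tested.

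Replicate numbers shared by the groups did not pair the arrays: differences between same-numbered arrays correlated at 0.141 for both transgenic groups, 0.118 and 0.0368 for each with wild type and 0.0575 for the C2C12 groups. With the replicate block Slc7a3 passed with AP20187 in transgenic muscle (0.44, adjusted p = 0.0217 by limma), making 4 members, and all genes called there were 5593. Over all genes C2C12 gave 55 calls, against 21 with the authors' values, 31 with no variance trend, 106 with the block, 126 with the mean over probes, 137 with no filter, 219 with the percentile without flagged spots, 360 with normexp and 13 to 239 without 1 array. The 3964 calls for AP20187 in transgenic muscle fell to 1869 without the second vehicle array, and to 2325 and 2583 without the first and second AP20187 array. The 5184 for vehicle-treated transgenic against wild type fell to 3149 and 3396 without the first and second wild type array and 3342 without the second transgenic array, and the 1691 for the difference between responses fell to 935 without the second transgenic vehicle array, 978 and 1105 without the first and second transgenic AP20187 array and 1035 without the first C2C12 AP20187 array, against 3179 with normexp. The share of calls that were higher was 56.6% for AP20187-treated transgenic against wild type and 44.7% with detected probes, 65.5% in C2C12 and 93.2% without flagged spots in the percentile, and 66.5% for the difference between responses and 30.6% under that setting, where the median over all genes moved to -0.27.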
